A study of Homo sapiens with 6 samples.

Results

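The abundant noncoding RNAs of the 5 genes RN7SL1, RN7SL2, RN7SK, RMRP and RPPH1 were followed in 6 RNA-seq libraries of the DLD-1 line, which comes from a human colorectal adenocarcinoma. The genes were listed by name, without a cut on their values, though with earlier results of these data known. They were found by matching the Ensembl identifiers of the count table to gene symbols. This gave 5 of the 58051 genes in the table and 5 of the 16974 genes that were tested. All cultures carried the same alleles: an auxin-inducible degron (AID) and NeonGreen, a fluorescent protein, on TPR, a protein of the nuclear basket of the nuclear pore, and, per the methods of the study, the TIR1 ligase inserted at the RCC1 locus. Leptomycin B, an inhibitor of the export receptor CRM1, was given at 200 nM for 3 h to the 3 cultures of the LMB group. The 3 cultures of the LMB+auxin group had the same Leptomycin B and, after 1 h of it, 1 mM auxin for the remaining 2 h, which triggers degradation of the tagged TPR. The titles of the samples name 2 h only. Leptomycin B was in every culture, the tagged TPR cells were a CRISPR/Cas9-edited line whose clones were selected by genotyping, and no library with auxin and untagged TPR was analysed here, so an effect of Leptomycin B cannot be measured and effects of TPR loss and of the auxin compound cannot be told apart.

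These RNAs are structured, are made by RNA polymerase III (Pol III) and carry no poly(A) tail, so that they are seen in libraries of total RNA from which ribosomal RNA has been removed. 7SL RNA, made from RN7SL1 and RN7SL2, is the scaffold of the signal recognition particle (SRP), which brings ribosomes that make secreted and membrane proteins to the endoplasmic reticulum. 7SK RNA, from RN7SK, holds P-TEFb, the CDK9 and cyclin T kinase that releases paused RNA polymerase II, in an inactive particle in the nucleus. RMRP is the RNA of RNase MRP, which cuts precursor ribosomal RNA, and RPPH1 is the catalytic RNA of RNase P, which trims the 5′ ends of precursor tRNAs. Both enzymes work mainly in the nucleus and nucleolus and share most of their proteins, while SRP works in the cytoplasm after its particle has left the nucleus.

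In GRCh38, with GENCODE 44 gene models, RN7SL1 (ENSG00000276168) is on the plus strand at chr14:49586580-49586878, and RN7SL2 (ENSG00000274012) is on the minus strand at chr14:49862550-49862849. RN7SK (ENSG00000283293) is on the plus strand at chr6:52995621-52995948, RMRP (ENSG00000277027) on the minus strand at chr9:35657754-35658017, and RPPH1 (ENSG00000277209) on the minus strand at chr14:20343075-20343407. Each is a single-exon noncoding gene, from 264 bases (RMRP) to 333 bases (RPPH1) long. RN7SL1 lies inside the span of RPS29, a ribosomal protein gene on the opposite strand, and RN7SL2 inside the span of the long noncoding RNA ENSG00000282885.

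To see which reads could also come from genes at other places, each gene was cut into overlapping windows as long as a read. Annotated genes that overlap a member were left out of this search: ENSG00000202198 holds the whole of RN7SK, ENSG00000259001 the whole of RPPH1, both on the strand of the member, and ENSG00000282885 spans RN7SL2. Of the 199 windows of RN7SL1, 51 (25.6%) occurred in no gene elsewhere, and of the 200 windows of RN7SL2 36 (18.0%) did. The others were shared between the pair or with RN7SL3, RN7SL4P, RN7SL5P or, for RN7SL1, ENSG00000282885. For RN7SK 112 of 228 windows (49.1%) occurred in no gene elsewhere, and the rest were shared with RN7SKP203, RN7SKP255, RN7SKP71 or RN7SKP80. None of the 164 windows of RMRP or the 233 of RPPH1 occurred in an annotated gene elsewhere. The separate values of RN7SL1 and RN7SL2 are therefore uncertain, and to a lesser degree that of RN7SK. The windows stand for single reads, whereas the libraries were read paired-end. What both reads of a pair could place together was not tested.

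The first 300 bases of 7SK RNA, chr6:52995621-52995920, are shown for the GATC letters of its 5′ hairpin, the part of the RNA that HEXIM proteins are known to bind. GATC, in capitals, occurred 3 times, first at position 12 and next at position 41, counted from the 5′ end.
RN7SK: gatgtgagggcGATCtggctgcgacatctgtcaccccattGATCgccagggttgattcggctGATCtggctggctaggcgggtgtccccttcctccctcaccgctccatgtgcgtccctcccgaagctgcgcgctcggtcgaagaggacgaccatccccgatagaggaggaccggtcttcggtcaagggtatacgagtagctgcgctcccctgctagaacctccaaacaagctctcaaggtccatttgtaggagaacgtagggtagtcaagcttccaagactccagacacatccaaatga

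RMRP, whole, and the first 300 bases of RPPH1, chr14:20343108-20343407, are shown because they are the related pair, the RNAs of the enzymes that share proteins. In a global alignment they were 48.0% identical, against 47.4% for RN7SK with RMRP and 49.5% for RN7SK with RPPH1, so over their whole length the related pair was no closer than unrelated ones. The only run of at least 8 bases that the printed sequences shared, in capitals, was 9 bases long.
RMRP: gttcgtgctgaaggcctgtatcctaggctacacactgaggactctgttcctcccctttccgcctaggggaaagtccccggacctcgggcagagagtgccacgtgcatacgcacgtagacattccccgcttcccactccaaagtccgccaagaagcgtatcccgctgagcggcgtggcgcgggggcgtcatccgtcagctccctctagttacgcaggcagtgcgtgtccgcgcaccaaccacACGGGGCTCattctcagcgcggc
RPPH1: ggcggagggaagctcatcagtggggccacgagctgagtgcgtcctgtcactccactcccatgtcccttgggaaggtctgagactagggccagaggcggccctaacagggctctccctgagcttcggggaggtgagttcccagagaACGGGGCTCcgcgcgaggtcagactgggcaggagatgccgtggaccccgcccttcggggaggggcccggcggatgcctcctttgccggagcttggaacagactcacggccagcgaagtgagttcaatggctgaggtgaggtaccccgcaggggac

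The 100 bases before each start are shown because Pol III promoters of more than one kind serve these genes: 7SK, RMRP and RPPH1 are known for promoters that lie wholly upstream, with a TATA box, and 7SL genes for one that also uses sequence inside the gene. The windows were chr14:49586480-49586579 for RN7SL1, chr14:49862850-49862949 for RN7SL2, chr6:52995521-52995620 for RN7SK, chr9:35658018-35658117 for RMRP and chr14:20343408-20343507 for RPPH1, each printed on the strand of its gene. Capitals mark TATA, which reads the same on both strands, and whose overlapping matches were counted separately. It was found 2 times in the RN7SK window, the nearer one starting 29 bases before the start, and 1 time each for RMRP, 33 bases before, and RPPH1, 34 bases before, and in neither 7SL window. The letters were chosen after the sequences were seen. Over 56911 annotated genes, 19.6% of such windows held TATA and 4.4% held it with its first base 35 to 25 bases before the start.
RN7SL1 upstream: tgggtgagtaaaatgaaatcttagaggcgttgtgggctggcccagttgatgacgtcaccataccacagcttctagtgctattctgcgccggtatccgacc
RN7SL2 upstream: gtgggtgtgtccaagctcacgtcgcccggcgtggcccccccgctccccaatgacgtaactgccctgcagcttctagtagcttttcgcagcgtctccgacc
RN7SK upstream: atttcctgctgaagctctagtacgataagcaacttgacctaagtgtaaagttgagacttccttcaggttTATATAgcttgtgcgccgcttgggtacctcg
RMRP upstream: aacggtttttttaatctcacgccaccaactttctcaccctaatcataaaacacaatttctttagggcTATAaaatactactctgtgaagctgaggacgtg
RPPH1 upstream: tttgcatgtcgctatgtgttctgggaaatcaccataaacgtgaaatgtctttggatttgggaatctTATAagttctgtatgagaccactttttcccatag

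Total counts ran from 28261903 to 35992425 per library, and factors of TMM, a scaling that balances the bulk of genes between libraries, from 0.9734 to 1.025. The epithelial identity of the cells was seen in KRT8 (3433 CPM, counts scaled to a common total, on average in LMB), KRT18 (2459 CPM) and EPCAM (478 CPM), and the intestinal markers KRT20 (175 CPM), CDX2 (136 CPM), CDH17 (104 CPM) and VIL1 (19.1 CPM) were present, while CDX1 (0 or 1 counts per library) and LGALS4 (4 to 10 counts) were near 0. Of 5 markers of fibroblasts, leukocytes and endothelium none passed the filter on low counts, and the highest, VIM, had 18 to 31 counts. Auxin acts on the TPR protein, so no RNA level in these libraries measures its depletion.

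Together the 5 RNAs took up 3.04%, 4.08% and 3.21% of all counts in the LMB libraries, in the order of replicates 1, 2 and 3, and 2.44%, 3.86% and 3.03% of those in the LMB+auxin libraries. The LMB mean was 3.44% ± 0.560 and the LMB+auxin mean 3.11% ± 0.716 (SD, n = 3 each). The groups overlapped, replicate 2 was the highest library of each group, and the LMB+auxin library was below the LMB library of its number in all 3 numbers. The table held 4 further identifiers whose counts matched those of a member within 0.1%, 1 each for RN7SL1, RN7SK, RMRP and RPPH1, and in GENCODE 44 those of RN7SK and RPPH1 overlap the member while the others have no entry. Those of RN7SL1, RN7SK and RMRP were equal to the member in every library, and that of RPPH1 was 19 to 32 counts higher. The further identifiers held another 1.95% to 3.13% of the counts, and with them taken out of the total the 5 RNAs made up 2.48% to 4.22% of a library. Values are shares of the counts of a library made after removal of ribosomal RNA. Fewer molecules per cell, fewer cells that hold them and a rise of other RNAs therefore cannot be told apart.

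RN7SL1 made up 0.710%, 1.07% and 0.769% of the LMB libraries, again by replicate number, and 0.485%, 0.993% and 0.699% of the LMB+auxin libraries. RN7SL2, the other 7SL gene, made up 0.668%, 0.950% and 0.724% of the LMB libraries and 0.488%, 0.888% and 0.670% of the LMB+auxin libraries, in the same order. Both 7SL genes were highest in replicate 2 of each group and lowest in LMB+auxin replicate 1, and the groups overlapped.

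RN7SK took 0.614%, 0.741% and 0.628% of the LMB libraries and 0.554%, 0.727% and 0.622% of the LMB+auxin libraries. RMRP took 0.581%, 0.731% and 0.572% of the LMB libraries and 0.489%, 0.673% and 0.584% of the LMB+auxin libraries. RPPH1 took 0.465%, 0.594% and 0.518% of the LMB libraries and 0.421%, 0.580% and 0.455% of the LMB+auxin libraries. In each of these 3 RNAs the groups overlapped as well, and replicate 2 was again the highest library of its group. Wilson 95% intervals of these shares reached at most 0.559% of the share to either side, so counting error was small beside the difference between libraries. Such intervals cover counting error only, because reads without molecular identifiers are not independent molecules.

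**Figure D1:**
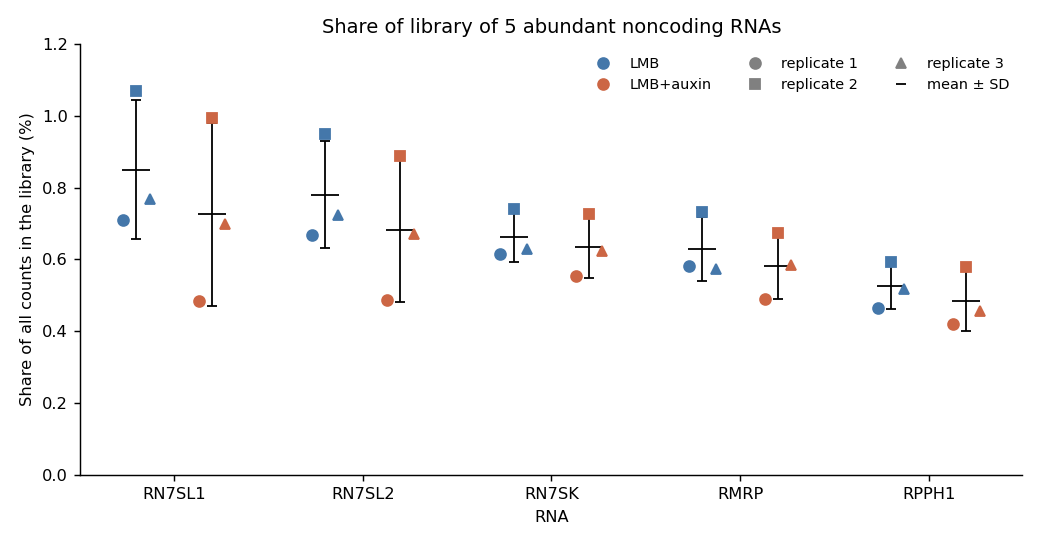
Share of all counts in the library, in percent (y axis), for each of the 5 RNAs (x axis); each point is a library, coloured by group and shaped by replicate number, with the mean and SD of 3 libraries as black bars. For every RNA the square, replicate 2, is the highest of its group, up to 1.07% for RN7SL1, and the groups overlap.

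Ranked by count in each library, with the further identifiers left out, RN7SL1 stood between place 1 and place 5 among all genes, RN7SL2 and RN7SK between 2 and 4, RMRP between 3 and 5 and RPPH1 between 6 and 7. Per length, in CPM per kilobase of exon, the 5 RNAs held the top 5 places by mean over 16746 tested genes with an annotated length. The order in LMB was RN7SL1 at 28447 ± 6941, RN7SL2 at 26060 ± 5460, RMRP at 23799 ± 3773, RN7SK at 20160 ± 2466 and RPPH1 at 15799 ± 2232 CPM per kilobase (SD, n = 3 each). Neighbours in this order differed by less than the larger of their SDs, apart from RN7SK and RPPH1, which differed by 4362 against a larger SD of 2466. Within libraries RMRP was above RN7SK and RN7SK above RPPH1 in 6 of 6, and RN7SL1 above RN7SL2 and RN7SL2 above RMRP in 5 of 6.

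LMB+auxin kept the same order of means, at 24597 ± 9194 for RN7SL1, 23007 ± 7272 for RN7SL2, 22276 ± 4039 for RMRP, 19525 ± 3142 for RN7SK and 14719 ± 2875 CPM per kilobase for RPPH1 (SD, n = 3 each). LMB+auxin replicate 1 was the exception in both places where the order broke. In that library RMRP stood at 18203, RN7SK at 16577, RN7SL2 at 15967 and RN7SL1 at 15926 CPM per kilobase, so that the 7SL genes had dropped below 7SK and RMRP.

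The comparison of LMB+auxin with LMB asks what TPR degradation does to these RNAs while CRM1 is blocked. None of the 5 was called by the edgeR quasi-likelihood test, where a call needs an adjusted p (Benjamini-Hochberg) under 0.05 together with a fold of at least 1.3, the 30% bar of the study, either way. In that fit 0.00589% of all tested genes were called, which is 1 gene. On the log2 scale the fold change and its standard error (SE) were -0.21 and 0.27 for RN7SL1 (adjusted p = 0.957), -0.18 and 0.23 for RN7SL2 (0.957), and -0.10 and 0.14 for RPPH1 (0.958). RMRP was at -0.10 with an SE of 0.14 (adjusted p = 0.960) and RN7SK at -0.05 with an SE of 0.13 (0.980). No member had an unadjusted p under 0.05 (0 of 5), as 4.37% of tested genes did, and DESeq2 and limma-voom also called 0 of 5. Tested on the share of library by an exact two-sided permutation test, whose smallest p for 3 against 3 is 0.1, p was 0.400 for RN7SL1, 0.500 for RN7SL2 and RPPH1, 0.600 for RN7SK and 0.700 for RMRP. Every fold change was smaller than its SE.

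Within replicate numbers the differences had one direction almost throughout. The log2 ratio of LMB+auxin to LMB in CPM was -0.55, -0.09 and -0.12 in replicates 1, 2 and 3 for RN7SL1 and -0.45, -0.08 and -0.10 for RN7SL2. It was -0.14, -0.02 and -0.17 for RPPH1 and -0.24, -0.10 and 0.04 for RMRP. For RN7SK it was -0.15 in replicate 1, with values of -0.00845 and -0.00125 in replicates 2 and 3. The largest differences of the 7SL genes thus lay in replicate 1, where LMB+auxin was lower by more than the fold of 1.3, and those of the other numbers were small. LMB+auxin was below LMB in all 3 numbers for 4 of 5 RNAs, RMRP being the exception, and so it was for 20.5% of all tested genes. RN7SK is among the 4 only through differences near 0 in replicates 2 and 3.

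With the replicate number as a block, a fit that compares libraries of the same number, the 7SL genes passed the adjusted p and no RNA reached the fold of 1.3. RN7SL2 fell by 0.21 on the log2 scale with an SE of 0.05 (edgeR adjusted p = 0.00669), and RN7SL1 fell by 0.25 with an SE of 0.06 (0.0213). RPPH1 was at -0.11 with an SE of 0.04 (0.138), RMRP at -0.10 with an SE of 0.05 (0.197) and RN7SK at -0.05 with an SE of 0.04 (0.538). Thus 2 of 5 passed the adjusted p and were lower, against 3.25% of all tested genes that did so. Under the full rule 0 of 5 were called by edgeR with the block, against 1.18% of tested genes, and 4 of 5 had an unadjusted p under 0.05, against 19.9% of tested genes. RN7SL1 and RN7SL2 share read windows, so their values do not count as a pair of independent results.

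The block result of the 7SL genes depended on the replicate numbers kept and on the tool, and the fall was smallest without replicate 1. With replicate 1 of both groups left out, that fit gave -0.11 for RN7SL1 (edgeR adjusted p = 0.0574) and -0.09 for RN7SL2 (0.136). Without replicate 3 RN7SL1 was at -0.31 (0.00861) and RN7SL2 at -0.26 (0.0567), and without replicate 2 both passed, at -0.33 (2.1e-04) and -0.27 (0.00677). Each fit with a number left out holds fewer libraries, so a lost adjusted p does not by itself single out that number. DESeq2 with the block gave -0.24 for RN7SL1 (adjusted p = 0.418) and -0.20 for RN7SL2 (0.422). With the further identifiers left out of the table, the block fit gave an edgeR adjusted p of 0.0764 for RN7SL1 and 0.00656 for RN7SL2. Adjusted p over all block fits ran from 2.3e-06 to 0.418 for RN7SL1 and from 1.5e-04 to 0.422 for RN7SL2.

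**Figure D2:**
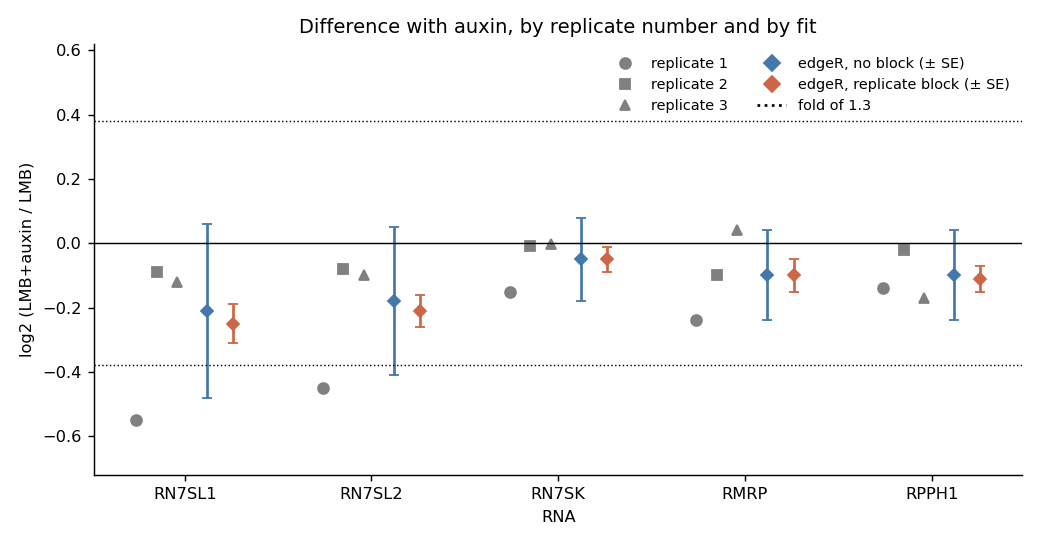
Log2 ratio of LMB+auxin to LMB (y axis) for each of the 5 RNAs (x axis): grey points are the 3 replicate numbers, blue diamonds the edgeR estimate without the block and orange diamonds the estimate with the replicate block, each with its SE; dotted lines mark a fold of 1.3. Only replicate 1 of RN7SL1 (-0.55) and RN7SL2 (-0.45) lies beyond the lower line, and the SE of every RNA is larger without the block.

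The 5 RNAs differed between replicate numbers. In a fit with group and replicate terms, the replicate terms passed an adjusted p of 0.05 in edgeR for 5 of 5, against 33.7% of all tested genes. The 5 RNAs moved together over the 6 libraries, with Pearson's r from 0.936 to 1.000 between pairs of them. Counts of them, here and in the comparison with auxin, are therefore not counts of independent results. Between the lowest and the highest number the fitted spread was 0.87 log2 units for RN7SL1 (adjusted p = 2.3e-08) and 0.74 for RN7SL2 (1.5e-14). It was 0.47 for RPPH1 (1.5e-11), 0.46 for RMRP (1.9e-10) and 0.39 for RN7SK (1.2e-08). Each spread was larger than the same RNA's difference with auxin. Over all tested genes the median spread was 0.213, and 1.45% of genes had a larger spread than RN7SL1, 2.90% than RN7SL2, 12.7% than RPPH1, 13.7% than RMRP and 18.9% than RN7SK.

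**Figure D3:**
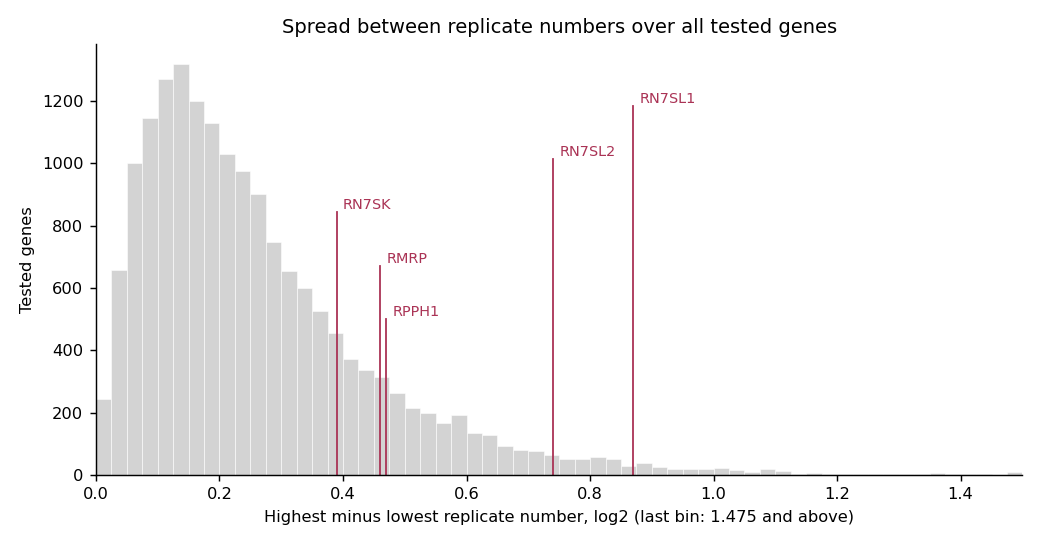
Histogram of the fitted spread between replicate numbers in log2 units (x axis) over the 16974 tested genes (y axis, genes per bin), with the 5 RNAs marked by red lines whose heights carry no value. RN7SL2 (0.74) and RN7SL1 (0.87) lie in the right tail and RN7SK, RMRP and RPPH1 between 0.39 and 0.47, to the right of the median of 0.213.

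In both groups 5 of 5 RNAs were highest in replicate 2, as were 26.9% of tested genes. Against the mean of replicates 1 and 3, replicate 2 of LMB was higher on the log2 scale by 0.57 for RN7SL1, 0.49 for RN7SL2, 0.38 for RMRP, 0.31 for RPPH1 and 0.29 for RN7SK. In LMB+auxin it was higher by 0.82 for RN7SL1, 0.68 for RN7SL2, 0.45 for RPPH1, 0.38 for RMRP and 0.36 for RN7SK. In both groups the 7SL genes stood highest in this difference. The median over all tested genes was -0.0180 in LMB and 9.4e-04 in LMB+auxin, and over 631 other tested genes with under 400 exonic bases it was -0.0189 and 0.0242. Of these 631 short genes 230 were higher in replicate 2 of both groups than the mean of replicates 1 and 3. By the same measure 6203 of all 16974 tested genes were. A part of RNA length in this difference was not tested. Without replicate 2, 2 of 5 RNAs, RN7SL1 and RN7SL2, still differed between replicates 1 and 3, and without the group term 4 of 5 did, RN7SL1 missing at an adjusted p of 0.119. The sources used here do not say what the replicate numbers share, and a batch behind them was not tested.

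Ratios between the RNAs within a library do not depend on scaling. RN7SK to 7SL, the count of RN7SK over the sum of RN7SL1 and RN7SL2, was 0.445, 0.367 and 0.421 by number in the LMB libraries and 0.569, 0.386 and 0.454 in the LMB+auxin libraries. It was higher in LMB+auxin in 3 of 3 numbers and lowest in replicate 2 of each group, and the groups overlapped. The log2 difference between groups was 0.18 (exact two-sided permutation p = 0.400, Benjamini-Hochberg adjusted over 4 ratios 0.533). Taken within numbers, an exact sign-flip test gave p = 0.250, the smallest that 3 pairs allow.

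RN7SL1 to RN7SL2 was 1.06, 1.12 and 1.06 in LMB and 0.994, 1.12 and 1.04 in LMB+auxin, a log2 difference of -0.04 (exact permutation p = 0.400, adjusted 0.533). The counts assigned to the 7SL genes thus moved together from library to library, and their ratio was highest in replicate 2. These genes share read windows, and how shared reads were placed was not tested. RN7SL1 to RN7SL2 was lower in LMB+auxin in all 3 numbers (exact sign-flip p = 0.250, the smallest that 3 pairs allow). RMRP to RPPH1 was 1.25, 1.23 and 1.10 in LMB and 1.16, 1.16 and 1.28 in LMB+auxin, a log2 difference of 0.01 (exact permutation p = 1.00). RMRP to RN7SK was 0.946, 0.987 and 0.910 in LMB and 0.884, 0.926 and 0.938 in LMB+auxin, a log2 difference of -0.05 (exact permutation p = 0.400, adjusted 0.533). For these 3 ratios the groups overlapped, and no ratio of the 4 differed by more than the larger of the SDs of its groups. Against the smaller SD, RN7SK to 7SL (0.144 in LMB, 0.281 in LMB+auxin) and RMRP to RN7SK (0.0582 and 0.0455) differed by more.

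**Figure D4:**
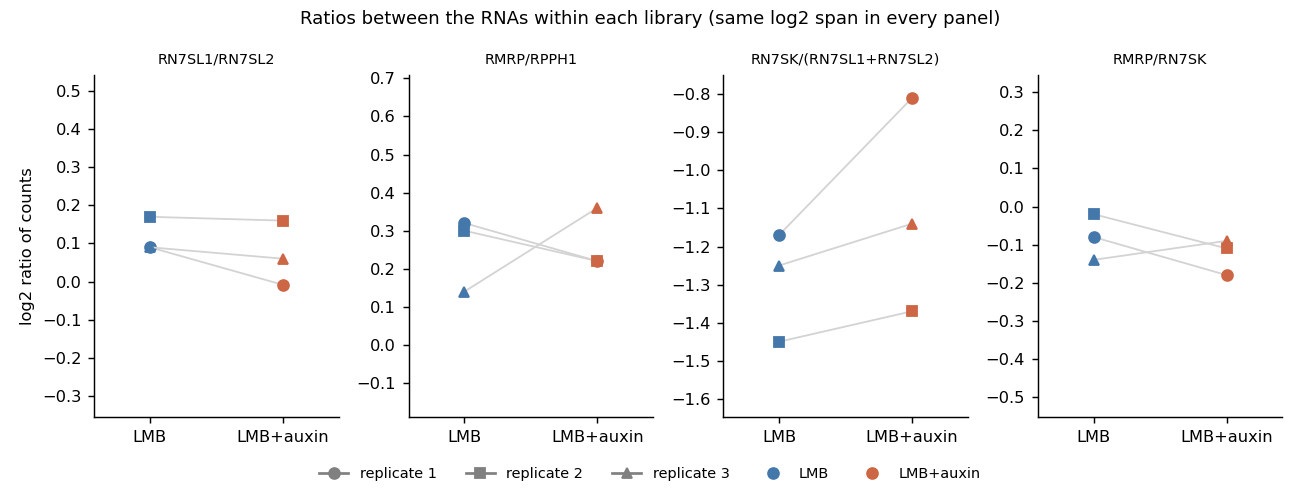
Log2 ratio of counts (y axis) for 4 ratios between the RNAs in LMB (left) and LMB+auxin (right) libraries, with a line joining the same replicate number and the same log2 span in each panel. RN7SK over the summed 7SL genes rises along all 3 lines and is lowest in replicate 2, while the other ratios lie in narrower ranges.

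Copies of these genes gave few counts. Beside RN7SL1 and RN7SL2 the table held 678 identifiers named as 7SL genes, of which 386 had a count and 12 passed the filter, and together they amounted to 1.72% to 1.96% of the counts of the pair. The 293 copies of 7SK had 565 to 900 counts per library, 0.274% to 0.451% of those of RN7SK, and 8 passed the filter. RN7SL3, the most counted copy, had 4025, 7683 and 5558 counts in LMB and 3007, 6682 and 5513 in LMB+auxin, and its log2 fold change was -0.10 (edgeR adjusted p = 0.982, and 0.669 with the block). RN7SL4P had 1334 to 2776 counts and a log2 fold change of -0.16 (0.963, and 0.0526 with the block). Of the copies of 7SK, RN7SKP255 had 32 to 166 counts (log2 fold change 0.51, edgeR adjusted p = 0.954), RN7SKP203 50 to 127 (0.21, 0.958) and RN7SKP23 55 to 75 (0.03, 0.991). Like the members, RN7SL3 and RN7SL4P were highest in replicate 2 of both groups, at 0.71 to 0.79 log2 units above the other replicates.

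Without the block edgeR called 0 of the 12 tested 7SL copies. With the block it called 4 of 12, beside the 1.18% of tested genes given above, and 0 of the 8 tested copies of 7SK. RN7SL5P, among the 3 most counted, had 183, 352 and 246 counts in LMB and 96, 233 and 128 in LMB+auxin, and fell by 0.70 on the log2 scale with the block (SE 0.10, edgeR adjusted p = 4.9e-07). The other 3 are named because they were called and were picked after their values were seen. RN7SL752P fell by 0.73 (3.4e-05) with 57 to 255 counts, RN7SL396P fell by 0.52 (0.0254) with 41 to 144 counts, and RN7SL30P rose by 1.33 (1.0e-04) with 9 to 48 counts. RN7SL752P overlaps PLXND1 and RN7SL30P overlaps MAPKAP1, whose own log2 fold changes with the block were -0.19 (edgeR adjusted p = 0.265) and 0.04 (0.648). RN7SL5P and the pair RN7SL1 and RN7SL2 share windows of a read length, and how shared reads were placed was not tested.

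Of the genes next to the members none was called, and their log2 fold changes ran from -0.13 to 0.10. RPS29, which spans RN7SL1, was at 305 CPM in LMB and 327 in LMB+auxin (log2 fold change 0.10, edgeR adjusted p = 0.954). CCDC107, next to RMRP, was at -0.08 (0.957), and PARP2, which starts beside RPPH1 on the opposite strand, at 0.09 (0.954). ENSG00000282885 and ENSG00000278002 at RN7SL2 were at -0.10 (0.973) and -0.13 (0.960), and GSTA4, next to RN7SK, had 16 to 32 counts and was not tested. Replicate 2 of LMB and of LMB+auxin differed from the other replicates of its group by 0.08 and -0.10 log2 units for RPS29, 0.12 and 0.13 for PARP2 and -0.08 and -0.05 for CCDC107. The same differences were -0.45 and 0.07 for ENSG00000282885, with 42 to 71 counts, and -0.56 and 0.08 for ENSG00000278002, with 69 to 115. Only PARP2 of these 5 was higher in replicate 2 of both groups, by less than any of the 5 RNAs.

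The protein partners of the RNAs were read from lists by particle. No gene of the 5 lists, 61 tested genes in all, was called by edgeR with or without the block (0 calls each). An unadjusted p under 0.05 was seen for 3 of 61 genes without the block, where 4.37% of all tested genes had one, and for 17 of 61 with it, where 19.9% did, and DESeq2 and limma-voom also called 0. The median log2 fold change over all tested genes was -0.00270.

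For SRP, all 8 protein and receptor genes were tested, with 7 of 8 above 0. Their median log2 fold change was 0.07, beside -0.00270 over all tested genes. SRP19, which helps SRP54 join the particle, was highest at 0.12 (edgeR adjusted p = 0.954), and SRP9, which binds the Alu end of 7SL, was lowest at -0.10 (0.954). None passed the adjusted p in the block fit (0 of 8), and 3 of 8 had an unadjusted p under 0.05 there, beside 19.9% of all tested genes. Of the SRP genes 2 of 8 were highest in replicate 2 of both groups, beside 26.9% of all tested genes.

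For the 7SK particle and P-TEFb, all 7 genes were tested, with a median of -0.06. MEPCE, the enzyme that caps the 5′ end of 7SK, had 1175, 1281 and 1334 counts in LMB and 919, 976 and 1008 in LMB+auxin. It was at -0.30 without the block (edgeR adjusted p = 0.954) and fell by 0.30 with it (2.6e-04), short of the fold of 1.3 and beside the 3.25% of tested genes that passed as lower. LARP7, which binds the 3′ end of 7SK and protects it, was highest of the list at 0.13 (0.954, and 0.157 with the block). HEXIM1, which inhibits P-TEFb on 7SK, was at -0.06 (0.963) and its relative HEXIM2 at -0.23 (0.954, and 0.0533 with the block). CDK9, the kinase, and its cyclins CCNT1 and CCNT2 lay between -0.06 and 0.01. In this list 4 of 7 genes were highest in replicate 2 of both groups, beside 26.9% of all tested genes.

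For RNase P and RNase MRP, all 11 protein genes were tested, with a median of -0.01. RPP30, a protein of both enzymes, was at 0.18 without the block (edgeR adjusted p = 0.954) and rose by 0.17 with it (0.0398), and 1.11% of tested genes passed the adjusted p as higher in that fit. RPP25 was lowest at -0.23 (0.954) with 67 to 133 counts. Of these genes 2 of 11 were highest in replicate 2 of both groups, beside 26.9% of all tested genes.

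Among 28 genes of the Pol III machinery, all tested, the median was 0.02, with 16 above and 12 below 0. POLR3F, a subunit of the enzyme, was highest at 0.21 (edgeR adjusted p = 0.954), and SNAPC2, of the complex that binds upstream Pol III promoters such as that of 7SK, was lowest at -0.21 (0.954). MAF1, the repressor of Pol III, had 2117, 2429 and 2667 counts in LMB and 1839, 2131 and 2093 in LMB+auxin. It fell by 0.17 with the block (0.0399) and was at -0.16 without it (0.954). Of the 28, 2 were highest in replicate 2 of both groups, beside 26.9% of all tested genes.

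Of 17 other Pol III RNAs, 15 were in the table, RNY5 and SNAR-A1 were not matched, and 7 passed the filter, with a median of 0.10. RNU6ATAC was highest at 0.25 (edgeR adjusted p = 0.957) with 23 to 60 counts, and RN7SL3 lowest at -0.10. RNY1, a Y RNA, had 957, 1808 and 1858 counts in LMB and 1193, 2099 and 1413 in LMB+auxin (log2 fold change 0.13, adjusted p = 0.971), and BCYRN1, the BC200 RNA, had 760 to 1009 counts (0.14, 0.954). VTRNA1-3, a vault RNA, had a count of 0 in all libraries, which allows 0.0834 to 0.106 CPM. In replicate 2 of both groups RNY1, RN7SL3, VTRNA2-1 and RNU6ATAC stood highest, as 4 of the 7 tested, beside 26.9% of all tested genes. RNY1 was higher there by 0.48 in LMB and 0.77 in LMB+auxin, whereas BCYRN1 was lower by 0.15 and 0.16.

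**Figure D5:**
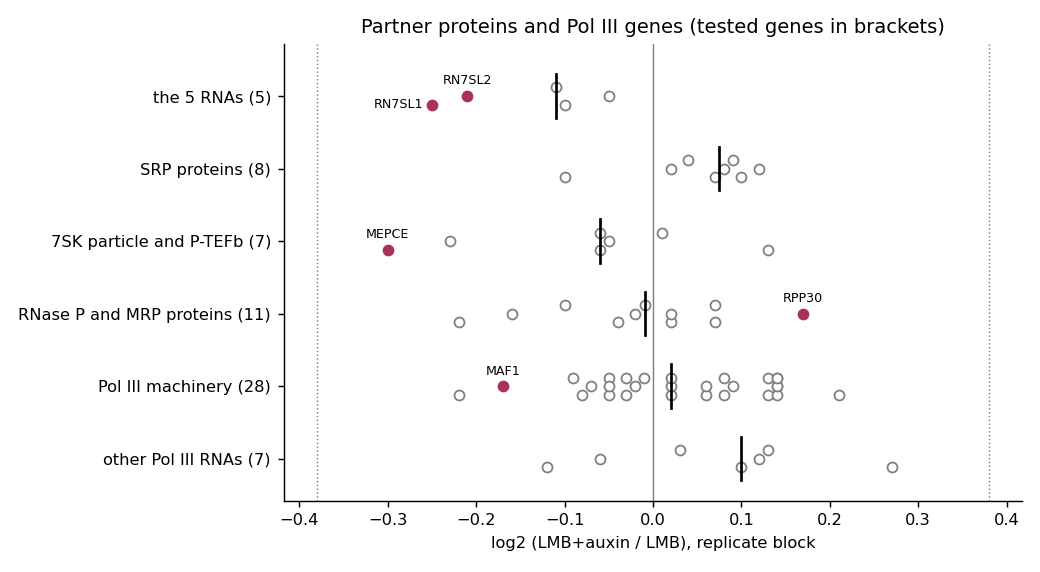
Log2 ratio of LMB+auxin to LMB in the edgeR fit with the replicate block (x axis) for the 5 RNAs and for each tested gene of the 5 lists (rows, tested genes in brackets); filled points passed an adjusted p of 0.05, bars are medians and dotted lines a fold of 1.3. Besides RN7SL1 and RN7SL2, MEPCE, MAF1 and RPP30 are filled, and no point passes a dotted line.

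The tested genes most like each RNA were sought among 10492 genes with a mean of at least 10 CPM, by Pearson's r of log2 CPM over the 6 libraries, given as a description since the libraries share treatments and replicate numbers and the genes were picked for this value. For RN7SL1 they were ENSG00000251357, MIF, MIF-AS1, NME4 and FKBP8 (r from 0.997 to 0.998), and for RN7SL2 MIF, MIF-AS1, ENSG00000251357, MVP and NME4 (0.997 to 0.998). MIF encodes a secreted cytokine, and its log2 CPM ranged over 0.42 across libraries, against 1.19 for RN7SL1. MIF, MIF-AS1 and ENSG00000251357 had means of 230.3, 231 and 199 CPM and log2 ranges of 0.42, 0.42 and 0.43. Whether these entries count the same reads was not tested, so they may not be separate genes in this search. For RN7SK they were ACOT7, DDX27, SERF2, IDH2 and ENSG00000271853 (0.997 to 0.999), for RMRP TST, BLVRB, KIAA1958, ABCF3 and ENTREP2 (0.995 to 0.998), and for RPPH1 RNPEPL1, ENSG00000272030, RPL19, ENSG00000255663 and CISD3 (0.994 to 0.996). The 5 RNAs and their copies were left out of this search. Of the other listed Pol III RNAs only RNY1 and BCYRN1 reached a mean of 10 CPM, and neither was among the genes named. The search therefore does not show whether Pol III RNAs vary alike.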

How the data were processed

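RNA of 6 DLD-1 libraries was made into stranded total RNA libraries after removal of ribosomal RNA with Ribo-Zero Gold and read paired-end, per the methods of the study. The authors aligned reads to GRCh38 with STAR and assigned them to genes of Ensembl release 87 with featureCounts; the submitters' processing notes name STAR 2.6.1c and featureCounts 1.5.2. The deposited table holds raw counts, 1 row per Ensembl gene. Use of strand, of reads with several matches and of overlapping genes is not given in the sources used here. ENSG00000202198 overlaps RN7SK and has the same counts in every library, and ENSG00000259001 overlaps RPPH1 and lies within 0.1% of its counts, while ENSG00000282885, which spans RN7SL2, has 42 to 71 counts per library. Total counts ran from 28261903 to 35992425 per library.

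The members, lists and tests were chosen with earlier results of these data known. Genes with CPM above 1 in at least 3 libraries were kept and tested with edgeR 4.0.16 (TMM scaling; estimateDisp, robust glmQLFit and glmQLFTest; R 4.3.3), with p-values adjusted over all 16974 genes. SEs were taken as the absolute log2 fold change divided by the root of the F statistic. Deviations from the group means correlated between libraries of the same replicate number (r = 0.53, 0.69 and 0.27 across genes), so the numbers were taken as pairing the libraries, a pairing read from the data since no source says what a number shares, and the fit with the number as a block is given beside the one without it. DESeq2 1.42.0, limma 3.58.1 (voom), other scalings, no filter and leaving out libraries were alternatives. Partner genes named with values were those with the largest rise and the largest fall in each list and those that were called; the genes that passed the adjusted p with the block alone (MEPCE, MAF1, RPP30), the roles named beside them (HEXIM1, HEXIM2, CDK9, CCNT1, CCNT2) and RNY1, BCYRN1 and VTRNA1-3 were added after their values were seen. Copies were named as the 3 most counted per family. Sequences and coordinates were read from GRCh38 with GENCODE 44, newer than the gene models behind the counts, and aligned with Biopython 1.88; the transcript sequences of the 7SL genes are not reported here. The fits were tested on simulated data with 200 changed genes.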

Additional observations from a re-analysis of the deposited data

How the results depend on the processing

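The log2 fold change of each RNA kept its sign in 95 of 105 alternative values, and 0 of the 5 RNAs and 0 list genes were called in any of them. The 10 reversals, all under their SE and all without the replicate block, came from leaving out 1 library. Without LMB replicate 2 the log2 fold change was 0.01 for RN7SL1, 0.00885 for RN7SL2, 0.06 for RN7SK, 0.05 for RMRP and 0.02 for RPPH1, and without LMB+auxin replicate 1 it was 0.02, 0.03, 0.06, 0.03 and 0.00636 in the same order. With 1 library or number left out it ran from -0.53 to 0.02 for RN7SL1, -0.44 to 0.03 for RN7SL2, -0.17 to 0.06 for RN7SK, -0.23 to 0.05 for RMRP and -0.27 to 0.02 for RPPH1. The summed share of the 5 RNAs was 0.335 percentage points lower in LMB+auxin, with differences from -0.711 to 0.00157 when 1 library was left out, the last without LMB+auxin replicate 1. The log2 ratio of RMRP to RPPH1 turned to -0.04 without LMB replicate 3 or LMB+auxin replicate 3, and ran from -0.04 to 0.04 over all libraries left out. The number of RNAs that differed between replicate numbers ran from 2 (without replicate 2) to 5.

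With the replicate block the log2 fold changes were -0.25 (RN7SL1), -0.21 (RN7SL2), -0.05 (RN7SK), -0.10 (RMRP) and -0.11 (RPPH1), and over 8 block fits they stayed below 0. The block moved the number of genes called over the whole table from 1 to 201 in edgeR and from 11 to 31 in DESeq2, and no filter on low counts gave 39. The fits that combine the block with another choice and those without the further identifiers were added after seeing the data. Each RNA had at least 122403 counts in every library, so counting error was small. The SE without the block was larger than every difference, and with the block no difference reached the fold of 1.3.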
